A study of Mus musculus with 12 samples.

Results

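The 38 genes described here mark adult neurogenesis and cell division. They were chosen by symbol for their known roles, and all 38 were found among the 41743 genes of the deposited table. They comprise 4 genes of stem and progenitor cells, 4 transcription factors of progenitors and early neurons, 9 genes of immature neurons, 6 cyclin, kinase and growth-marker genes, 6 genes of mitosis and chromosome structure and 9 genes of DNA replication. Their RNA was measured in mouse hippocampus after exposure to Gulf War chemicals.

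The toxicant group was 6 male C57Bl/6 mice, 12 weeks old, injected subcutaneously on weekdays for 2 weeks with a mixture that gave DEET at 7.5 mg/kg, chlorpyrifos at 12.5 mg/kg and pyridostigmine bromide at 2.5 mg/kg. Pyridostigmine bromide and chlorpyrifos inhibit cholinesterases, and DEET is an insect repellent. The control group was 6 male C57Bl/6 mice of the same age that received vehicle, whose composition is not given in the sources used here. Hippocampi were taken when the exposure ended and polyadenylated RNA was sequenced, 1 library per animal.

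New neurons arise in the adult rodent hippocampus from radial glia-like stem cells in the subgranular zone of the dentate gyrus. These cells express Sox2 and nestin, give rise to dividing intermediate progenitors marked by Eomes, and then to immature neurons that carry doublecortin before they mature into granule cells. Proliferation is driven by cyclins and their kinases, DNA is copied by a helicase built of the MCM proteins together with the sliding clamp PCNA, and mitosis follows. Oligodendrocyte precursors also divide in the adult hippocampus. In bulk tissue, fewer cells of a type and less RNA per cell cannot be told apart.

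Control 4 and control 5 had identical values in every gene and were counted as 1 library, named control 4-5, which left 6 toxicant and 5 control libraries. Values are RPKM, reads scaled to gene length and to depth. The reads behind them numbered 21.5 to 28.4 M in toxicant libraries and 25.0 to 34.9 M in control libraries. The share of these reads that lay on the genes of the table was 80.8% ± 2.68 in toxicant libraries (SD, n = 6) and 85.4% ± 4.58 in control libraries (SD, n = 5). It was 76.8% to 83.8% in toxicant libraries and 78.4% to 89.5% in control libraries, with control 1, 3 and 6 above 87% and the other 8 libraries at or below 83.8%. RPKM is scaled to all reads, so a lower share on genes lowers the values of genes by construction. Genes listed for hippocampal identity summed to 923 to 1222 RPKM in toxicant and 1023 to 1642 RPKM in control libraries. Most of that sum was Nrgn, at means of 667 RPKM in toxicant and 836 RPKM in control libraries, and the kinase gene Camk2a, at 333 and 418 RPKM. The CA1 gene Wfs1 averaged 23.4 RPKM in toxicant and 34.8 RPKM in control libraries. Zbtb20 of the same list went the other way, at 13.4 RPKM in toxicant and 10.6 RPKM in control libraries. Prox1 averaged 9.19 RPKM in toxicant and 9.67 RPKM in control libraries, and Neurod6 52.5 and 63.5 RPKM. The sum thus mainly follows Nrgn and Camk2a and was not tested as a measure of hippocampal identity. Markers of the choroid plexus, a tissue next to the hippocampus, summed to 15.3 to 1805 RPKM in toxicant and 16.8 to 2889 RPKM in control libraries.

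The comparison asked which of these genes differed between toxicant-exposed and vehicle-treated hippocampi. None of the 38 passed the test. Most mean levels of the genes tested lay lower in toxicant libraries, but by about as much as those of the transcriptome as a whole. Among the genes tested, the lowest unadjusted p-values belonged to Mcm6, Tbr1 and Pcna, each with a lower mean in toxicant libraries. The stem cell genes, Dcx and the D-type cyclins had overlapping groups.

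To be tested, a gene had to average 0.5 RPKM or more across the 11 libraries, and 25 of the 38 genes did so, among 13493 genes in all. The other 13 were Eomes, Draxin, Ccna2, Ccnb1, Cdk1, Mki67, Top2a, Bub1, Aurkb, Cenpe, Birc5, Rrm2 and Tyms. Just inside the limit were Mcm3 and Mcm2, at means of 0.515 and 0.574 RPKM. Just outside it were Ccna2 and Rrm2, at 0.384 and 0.332 RPKM. Counting error is large for the low genes, since 15 of the 38 had fewer than 100 reads in every library.

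With limma on log2(RPKM + 0.5) and Benjamini-Hochberg adjustment over all genes tested, 0 of the 25 genes passed an adjusted p of 0.05, and 0% of all 13493 genes did. limma-voom on the reads recovered from the RPKM values also called 0 genes. At an unadjusted p under 0.05 there were 3 of the 25, all lower in toxicant libraries, against 17.0% of all genes tested that were lower at that p. None was higher at that p, against 3.33% of all genes tested. Fold changes are toxicant over control on the log2(RPKM + 0.5) scale, on which the change of a low gene appears too small.

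Of the 25 genes, 19 had a log2 fold change below 0 and 6 above it, while 70.0% of all genes tested were below 0. Their median log2 fold change was −0.13, against −0.11 for all genes tested, and 13 of the 25 lay below that all-gene median. With median-ratio scaling of the libraries the medians were −0.03 for the 25 genes and −0.02 for all genes, and 13 of the 25 lay below 0 and 12 above it, beside 7309 of all 13493 genes below 0. Groups did not overlap for 1 of the 38, Tbr1, which was lower in toxicant libraries, against 2.03% of all genes tested that were lower without overlap and 0.111% that were higher.

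**Figure D1:**
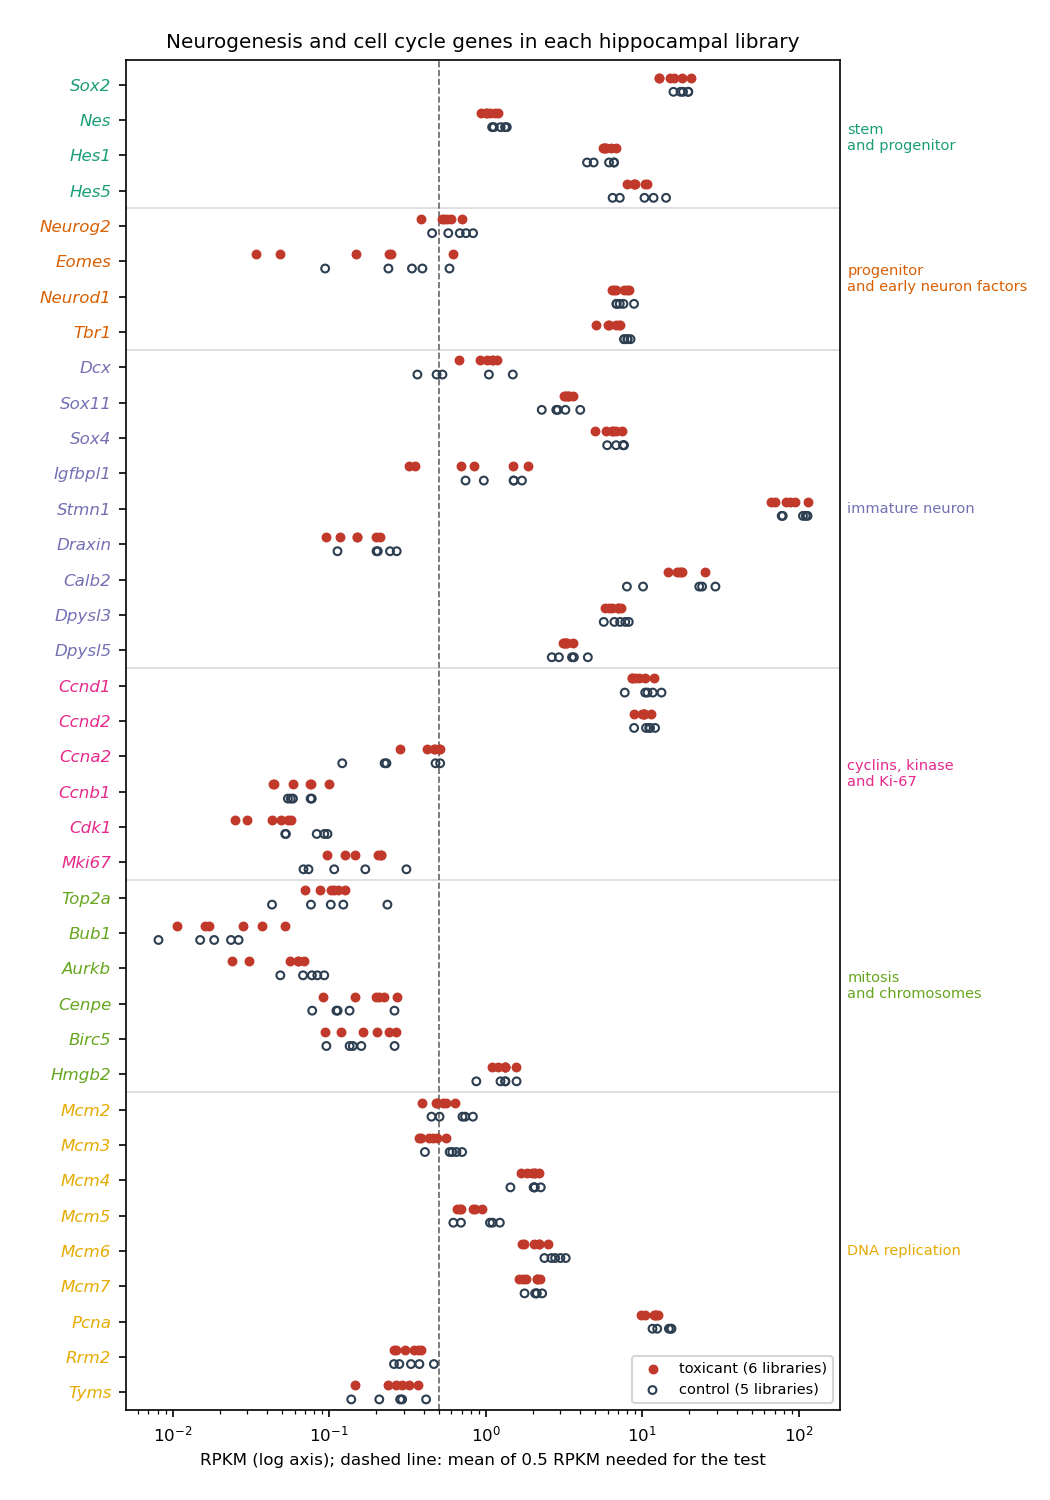
RPKM of each of the 38 genes (log axis) in 6 toxicant libraries (filled points) and 5 control libraries (open points), ordered by role, with the dashed line at the mean of 0.5 RPKM needed for a test. Stmn1 had the highest levels and Bub1 the lowest, and Tbr1 alone has all filled points left of all open points.

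Among the stem and progenitor genes, Sox2, a transcription factor that maintains neural stem cells, averaged 15.8 ± 2.97 RPKM in toxicant libraries (SD, n = 6) and 18.2 ± 1.61 RPKM in control libraries (SD, n = 5). Its log2 fold change was −0.21 ± 0.12 (SE; limma adjusted p = 0.282). Nes encodes the intermediate filament nestin. It averaged 1.06 ± 0.0953 RPKM in toxicant and 1.23 ± 0.118 RPKM in control libraries, which gave −0.15 ± 0.08 on the log2 scale (limma adjusted p = 0.264). Sox2 is also expressed by astrocytes, and astrocyte markers summed to 384 to 446 RPKM in toxicant and 423 to 459 RPKM in control libraries.

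Hes1 and Hes5 encode repressors induced by Notch signalling that hold progenitors undifferentiated. Hes1 averaged 6.02 ± 0.447 RPKM in toxicant and 5.73 ± 1.00 RPKM in control libraries (log2 fold change 0.08 ± 0.10, limma adjusted p = 0.591). Hes5 averaged 9.27 ± 1.02 RPKM in toxicant and 9.98 ± 3.21 RPKM in control libraries (log2 fold change −0.05 ± 0.17, limma adjusted p = 0.839). Both spread more among control than among toxicant libraries, and the direction of Hes5 flips to 0.06 with median-ratio scaling. An uncharacterised gene, Gm20421, lies on the opposite strand of Hes5 and covers 31.8% of its exon bases. It averaged 1.29 RPKM, a level that would place 14.7 reads on the shared bases against a mean of 352 reads for Hes5.

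Of the factors of progenitors and early neurons, Neurog2, which starts neuronal differentiation, averaged 0.555 ± 0.105 RPKM in toxicant and 0.658 ± 0.147 RPKM in control libraries (log2 fold change −0.13 ± 0.11, limma adjusted p = 0.417). Eomes, which encodes Tbr2 of intermediate progenitors, ranged from 0.0339 to 0.616 RPKM in toxicant and 0.0942 to 0.586 RPKM in control libraries. It rested on 4 to 69 reads in a library and was not tested.

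Neurod1 acts in the survival and maturation of new granule neurons. It had 6.77, 7.66, 7.96, 6.59, 8.16 and 6.36 RPKM in toxicant 1 to 6, against 6.86, 7.57, 6.83, 8.85 and 7.17 RPKM in control 1, 2, 3, 4-5 and 6. The groups overlapped over most of their range, and control 4-5 was the highest of all 11 libraries. The log2 fold change was −0.04 ± 0.09 (limma adjusted p = 0.770), and 0.07 with median-ratio scaling.

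Tbr1, ENSMUSG00000035033 at chr2:61802930-61814114 (+ strand), encodes a T-box factor of early glutamatergic neurons that is also kept in mature neurons of the deep neocortex and subiculum. It had 6.01, 5.05, 6.76, 6.10, 7.10 and 7.15 RPKM in toxicant 1 to 6, against 8.41, 7.65, 8.05, 7.65 and 8.03 RPKM in control 1, 2, 3, 4-5 and 6. Every toxicant library lay below every control library, with toxicant 2 the lowest. The log2 fold change was −0.31 ± 0.09 (SE; limma unadjusted p = 0.00368, adjusted p = 0.199), and −0.21 with median-ratio scaling. The 614 to 1535 reads on Tbr1 in a library leave little counting error.

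Markers of neocortex and subiculum were mostly lower in toxicant libraries, as Tbr1 was, but about as often as all genes tested. The 9 of that list, all found, summed to a median of 35.1 RPKM in toxicant libraries (lowest 32.9) and 38.7 RPKM in control libraries (lowest 36.5). The sums overlapped, with toxicant 6 above control 2 and control 4-5. Of 8 tested, 6 were lower and 2 higher (5 and 3 with median-ratio scaling), with a median log2 fold change of −0.12. Of all genes tested, 70.0% were below 0, with a median of −0.11. The 2 higher markers were Rorb at 0.25 and Fezf2 at 0.05. Tle4, a corepressor gene of deep-layer cortical neurons, averaged 6.66 ± 0.327 RPKM in toxicant and 8.08 ± 0.525 RPKM in control libraries with no overlap between groups (limma adjusted p = 0.174). Lower values without overlap were found for 2.03% of all genes tested. The part of neocortex and subiculum in the Tbr1 values was not tested. Markers of dentate granule cells, the mature product of hippocampal neurogenesis, had a median log2 fold change of −0.32. All 8 were lower in toxicant libraries, and 5 of 8 with median-ratio scaling. At an unadjusted limma p under 0.05 there were 3, beside 17.0% of all genes tested that were lower at that p, and 0 passed adjustment.

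Dcx, ENSMUSG00000031285 at chrX:143855842-143933311 (− strand), encodes doublecortin, the microtubule protein used to identify migrating immature neurons. It had 0.674, 1.10, 1.02, 1.18, 1.11 and 0.920 RPKM in toxicant 1 to 6, against 0.366, 1.49, 0.485, 1.05 and 0.529 RPKM in control 1, 2, 3, 4-5 and 6. The control libraries enclosed the whole toxicant range, with control 2 the highest of all libraries and control 1, 3 and 6 the 3 lowest. The log2 fold change was 0.29 ± 0.20 (limma adjusted p = 0.338). Control 1 had 131 reads on Dcx (95% Poisson interval 110 to 155, counting error only) and control 2 had 577 (531 to 626).

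Sox11, a transcription factor needed for maturation of newborn neurons, had 3.29, 3.59, 3.33, 3.14, 3.39 and 3.21 RPKM in toxicant 1 to 6, against 2.28, 3.22, 2.88, 4.01 and 2.82 RPKM in control 1, 2, 3, 4-5 and 6. The toxicant libraries lay close together inside the control range. Its log2 fold change was 0.13 ± 0.10 (limma adjusted p = 0.402). Sox4, its relative, averaged 6.33 ± 0.833 RPKM in toxicant and 7.10 ± 0.722 RPKM in control libraries (log2 fold change −0.16 ± 0.10, limma adjusted p = 0.311). The antisense gene Gm26735 covers 54.6% of the exon bases of Sox4, so Sox4 counts are uncertain where the strand was not used in counting.

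Igfbpl1, a secreted binding-protein gene enriched in neuronal progenitors, averaged 0.924 ± 0.619 RPKM in toxicant and 1.29 ± 0.408 RPKM in control libraries. Its log2 fold change of −0.41 ± 0.27 (limma adjusted p = 0.331) was the most negative of the 25 with RPKM as deposited, and it was −0.16 ± 0.31 with the fraction of reads on genes as covariate. Its toxicant libraries ran from 0.325 to 1.85 RPKM. The stathmin gene Stmn1, whose product destabilises microtubules, had the highest level of the 38 genes, 85.8 ± 17.2 RPKM in toxicant and 97.4 ± 17.7 RPKM in control libraries (log2 fold change −0.18 ± 0.16, limma adjusted p = 0.415). Draxin, a secreted axon guidance gene, stayed under the limit at 0.153 ± 0.0450 RPKM in toxicant and 0.206 ± 0.0597 RPKM in control libraries.

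Calb2 encodes calretinin, a calcium-binding protein of immature granule neurons that is also made by interneurons, mouse mossy cells and thalamic and habenular neurons. It averaged 18.2 ± 3.59 RPKM in toxicant libraries and 18.9 ± 9.34 RPKM in control libraries (log2 fold change 0.09 ± 0.30, limma adjusted p = 0.835). Control 2 and control 4-5 had 7.97 and 10.1 RPKM, while the other 3 control libraries had 23.1 to 29.3 RPKM, so the toxicant range of 14.7 to 25.1 RPKM fell largely in the gap between them. The 5 thalamic and habenular markers other than Calb2 summed to 6.59 to 12.4 RPKM in toxicant and 8.63 to 11.4 RPKM in control libraries, and the 5 mossy cell markers to 39.8 to 51.5 RPKM in toxicant and 39.2 to 59.7 RPKM in control libraries. The part of these cells in the Calb2 values was not tested.

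The collapsin response mediator genes Dpysl3 and Dpysl5, which act on the growth cone cytoskeleton, completed the immature neuron genes. Dpysl3 averaged 6.60 ± 0.571 RPKM in toxicant and 7.10 ± 0.993 RPKM in control libraries (limma adjusted p = 0.501). Dpysl5 averaged 3.28 ± 0.174 RPKM in toxicant and 3.45 ± 0.716 RPKM in control libraries (limma adjusted p = 0.751). Of the 8 immature neuron genes tested, 5 had a log2 fold change below 0 and 3 above it, with a median of −0.07.

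**Figure D2:**
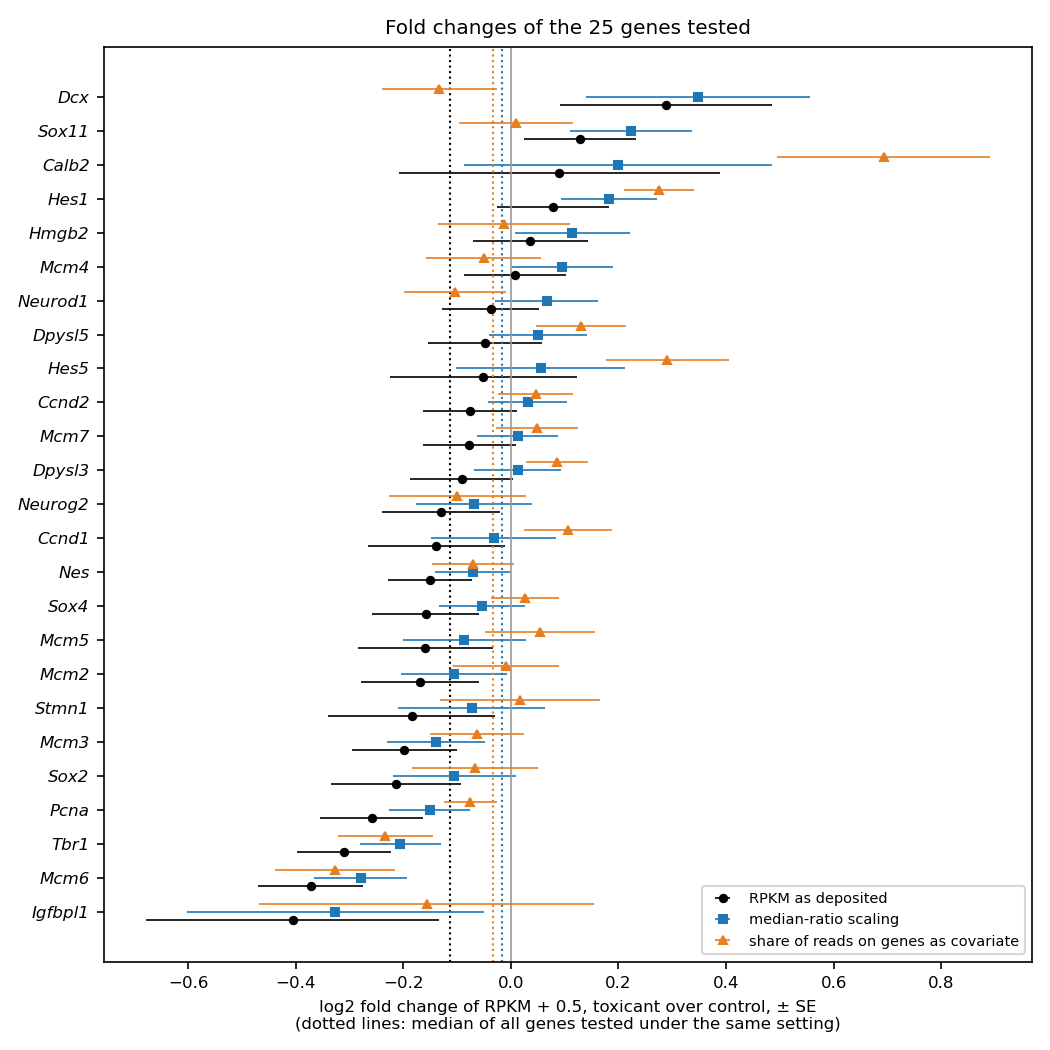
Log2 fold change of RPKM + 0.5, toxicant over control, with its SE for the 25 genes tested, from RPKM as deposited (black circles), with median-ratio scaling (blue squares) and with the fraction of reads on genes as covariate (orange triangles). Dotted lines give the median of all genes tested under the same setting, −0.11, −0.02 and −0.03, and most error bars reach the line of their setting.

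The D-type cyclins, which take cells through G1, were the cyclins of the 38 genes that lay above the limit. Ccnd2 is the D-type cyclin required for adult hippocampal neurogenesis. It had 11.3, 8.83, 10.3, 9.91, 10.2 and 10.3 RPKM in toxicant 1 to 6, against 10.6, 8.86, 12.1, 11.2 and 11.1 RPKM in control 1, 2, 3, 4-5 and 6. The groups overlapped, with toxicant 2 and control 2 the lowest. The log2 fold change was −0.08 ± 0.09 (limma adjusted p = 0.539), and 0.03 with median-ratio scaling. Ccnd1 averaged 9.66 ± 1.32 RPKM in toxicant and 10.8 ± 2.02 RPKM in control libraries (log2 fold change −0.14 ± 0.13, limma adjusted p = 0.452). LTO1, on the opposite strand, covers 23.4% of the exon bases of Ccnd1, and its level would place 52.0 reads there against a mean of 1293 reads for Ccnd1.

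Mki67 encodes Ki-67, the nuclear protein of cycling cells, and lay far below the limit. It had 0.0972, 0.215, 0.205, 0.213, 0.147 and 0.126 RPKM in toxicant 1 to 6, against 0.0737, 0.311, 0.108, 0.170 and 0.0684 RPKM in control 1, 2, 3, 4-5 and 6. As with Dcx, control 2 was the highest of all libraries and the control range enclosed the toxicant range. These values rested on 21 to 96 reads in a library. In the fit with no filter on low values the limma adjusted p was 0.765.

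Cdk1, the kinase that drives entry into mitosis, rested on 3 to 13 reads and averaged 0.0431 ± 0.0131 RPKM in toxicant and 0.0758 ± 0.0218 RPKM in control libraries. Without the filter its limma unadjusted p was 0.0148 and its adjusted p 0.336. Ccnb1, the cyclin partner of Cdk1 in mitosis, averaged 0.0664 ± 0.0219 RPKM in toxicant and 0.0646 ± 0.0111 RPKM in control libraries. Ccna2, the cyclin of S phase and G2, averaged 0.443 ± 0.0831 RPKM in toxicant and 0.313 ± 0.171 RPKM in control libraries. Exons of Ccna2 and of the RNA exosome gene Exosc9, on the opposite strand, share 510 bases, which are 12.5% of the exon bases of Ccna2. At its mean level of 3.11 RPKM, Exosc9 would place 42.8 reads on those bases, and Ccna2 had a mean of 41.9 reads in all, so Ccna2 cannot be told apart from Exosc9 where counting ignored strand. That estimate takes coverage as even and is rough. It was 29.0 reads in control 1, where 14 were counted for Ccna2, and 48.7 reads in toxicant 4, where 56 were counted.

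Genes of mitosis and chromosome structure were close to the detection limit, apart from Hmgb2. Hmgb2, a chromatin protein abundant in dividing cells, averaged 1.30 ± 0.151 RPKM in toxicant and 1.27 ± 0.255 RPKM in control libraries (log2 fold change 0.04 ± 0.11, limma adjusted p = 0.813). Top2a, the topoisomerase that untangles replicated DNA, averaged 0.101 ± 0.0197 RPKM in toxicant and 0.116 ± 0.0731 RPKM in control libraries. Bub1, a kinase of the spindle checkpoint, had 1 to 5 reads in a library, and Aurkb, the kinase of the chromosomal passenger complex, had 2 to 8. In the fit with no filter their limma adjusted p-values were 0.629 for Bub1 and 0.419 for Aurkb. Birc5, which encodes survivin of the same complex, had 9 to 26 reads and averaged 0.181 ± 0.0675 RPKM in toxicant and 0.159 ± 0.0620 RPKM in control libraries. The kinetochore motor gene Cenpe had 17 to 69 reads, at 0.190 ± 0.0628 RPKM in toxicant and 0.140 ± 0.0709 RPKM in control libraries.

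Oligodendrocyte precursors, the other dividing cells of this tissue, were followed by 11 markers, all above the limit. They summed to at most 110 RPKM in toxicant and at most 142 RPKM in control libraries, 8 were lower and 3 higher (7 and 4 with median-ratio scaling), and their median log2 fold change was −0.10. Their part in the cell cycle values was not tested.

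Replication genes gave the other members with a low p. Mcm6, ENSMUSG00000026355 at chr1:128331590-128359664 (− strand), encodes a subunit of the hexameric MCM helicase that opens DNA at replication origins. It had 1.76, 2.18, 2.49, 1.70, 2.18 and 2.03 RPKM in toxicant 1 to 6, against 2.63, 2.37, 3.00, 3.24 and 2.77 RPKM in control 1, 2, 3, 4-5 and 6. Only toxicant 3 reached into the control range, above control 2. The log2 fold change was −0.37 ± 0.10 (SE; limma unadjusted p = 0.00224, adjusted p = 0.180), the smallest p among the 38 genes, and −0.28 with median-ratio scaling. Mcm6 rested on 176 to 451 reads in a library.

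Pcna, ENSMUSG00000027342 at chr2:132249162-132253314 (− strand), encodes the clamp that holds DNA polymerase on its template and also serves DNA repair in cells that do not divide. It had 12.2, 10.4, 12.0, 9.85, 12.5 and 11.9 RPKM in toxicant 1 to 6, against 15.3, 11.6, 15.2, 12.4 and 14.8 RPKM in control 1, 2, 3, 4-5 and 6. Control 1, 3 and 6 stood above all other libraries, while control 2 and control 4-5 lay within the toxicant range. The log2 fold change was −0.26 ± 0.10 (SE; limma unadjusted p = 0.0189, adjusted p = 0.221), and −0.15 with median-ratio scaling.

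The 6 MCM subunits enter the helicase in equal number, but their RNA levels differed per length of gene. Mcm6, Mcm4 and Mcm7 were the highest in toxicant libraries, at 2.05 ± 0.296, 1.96 ± 0.177 and 1.94 ± 0.246 RPKM, and their ranges overlapped. In control libraries Mcm6 averaged 2.80 ± 0.335 RPKM, Mcm7 2.07 ± 0.189 RPKM and Mcm4 1.96 ± 0.306 RPKM. Mcm6 was then above Mcm7 in each of the 5 control libraries. The genes Cops6 and Ap4m1, on the opposite strand, share exon bases with Mcm7. Their levels would place 52.7 and 22.7 reads there, against a mean of 238 reads for Mcm7. Mcm7 values are therefore uncertain where the strand was not used in counting.

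Mcm5, Mcm2 and Mcm3 followed in that order in both groups. Mcm5 averaged 0.777 ± 0.118 RPKM in toxicant and 0.942 ± 0.269 RPKM in control libraries. Mcm2 averaged 0.514 ± 0.0833 RPKM in toxicant and 0.646 ± 0.161 RPKM in control libraries. Mcm3 averaged 0.450 ± 0.0690 RPKM in toxicant and 0.593 ± 0.112 RPKM in control libraries. Mcm2 and Mcm3 did not differ from each other beyond their spread in either group.

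Of the 6 subunits, 5 had a log2 fold change below 0 and Mcm4 one of 0.01. Mcm7, at −0.08, flips to 0.01 with median-ratio scaling. Besides that of Mcm6, the limma adjusted p-values were 0.255 for Mcm3, 0.321 for Mcm2, 0.389 for Mcm5, 0.533 for Mcm7 and 0.958 for Mcm4. The summed MCM level was 7.70 ± 0.618 RPKM in toxicant and 9.01 ± 0.851 RPKM in control libraries. Mcm6 made up 26.6% ± 2.70 of that sum in toxicant and 31.1% ± 2.39 in control libraries, a share that is free of the scaling of a library. The toxicant shares ran from 23.3% to 30.2% and the control shares from 29.5% to 35.3%, so the groups overlapped. Mcm4 made up 25.6% ± 2.64 in toxicant and 21.9% ± 3.75 in control libraries, and Mcm7 25.2% ± 2.42 in toxicant and 23.0% ± 0.296 in control libraries.

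**Figure D3:**
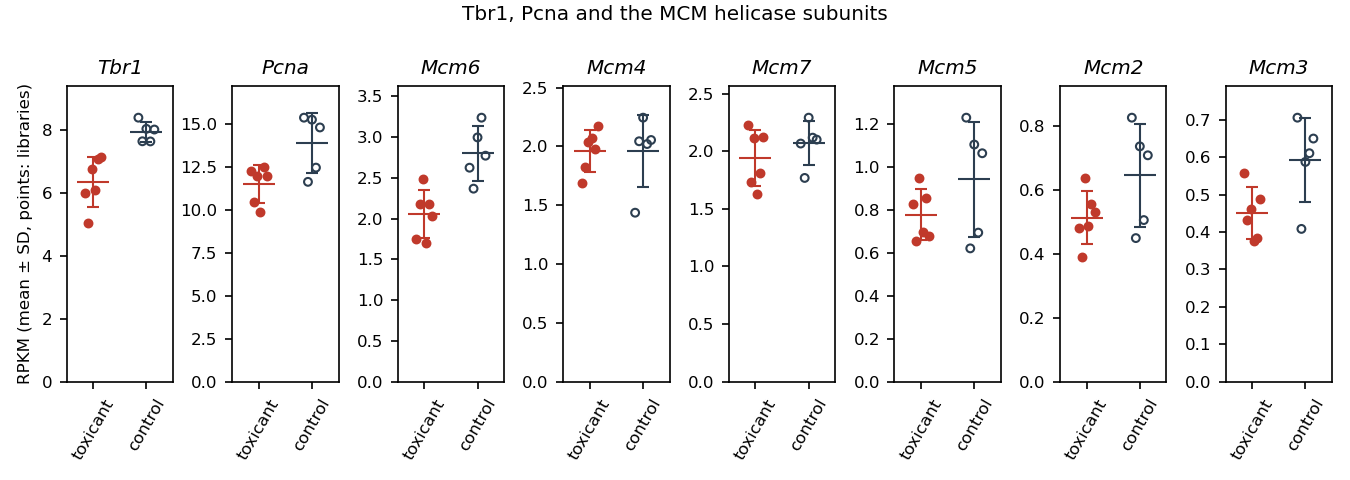
RPKM of Tbr1, Pcna and the 6 MCM subunits in 6 toxicant libraries (filled points, left) and 5 control libraries (open points, right), with mean and SD and each axis starting at 0. Toxicant Tbr1 values of 5.05 to 7.15 RPKM all lie below the control values of 7.65 to 8.41 RPKM, whereas the groups of the other 7 genes overlap.

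The nucleotide supply genes were under the limit. Rrm2, a subunit of ribonucleotide reductase, averaged 0.323 ± 0.0537 RPKM in toxicant and 0.343 ± 0.0826 RPKM in control libraries. Tyms, thymidylate synthase, averaged 0.272 ± 0.0776 RPKM in toxicant and 0.268 ± 0.104 RPKM in control libraries. Mean differences of both were smaller than the SD of either group.

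Promoter sequences are given for the 3 genes of lowest p, and for Mcm5 as an MCM gene whose groups overlapped widely, so that they can be read beside the values above. Each is the 250 bases before the gene start in RefSeq (GRCm38.p6), written 5′ to 3′ on the strand of the gene. RefSeq starts can differ from those of the gene models behind the coordinates above. By those coordinates the Tbr1 window lies inside the gene, and the Pcna window overlaps the first bases of its gene. Tbr1 lies at chr2:61804203-61804452 (+), Mcm6 at chr1:128359706-128359955 (−), Pcna at chr2:132253181-132253430 (−) and Mcm5 at chr8:75109259-75109508 (+). Capitals mark matches, on either strand, to E2F sites of S-phase genes (searched as TTTCGCGC, TTTGGCGC, TTTCCCGC and TTTGCCGC), to the CCAAT box (CCAAT) and to the cell cycle homology element (TTTGAA).
Tbr1: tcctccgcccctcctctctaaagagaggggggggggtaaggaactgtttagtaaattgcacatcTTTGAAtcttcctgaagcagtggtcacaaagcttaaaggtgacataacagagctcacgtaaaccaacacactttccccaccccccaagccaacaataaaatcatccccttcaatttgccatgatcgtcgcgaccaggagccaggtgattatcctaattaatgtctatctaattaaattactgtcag
Mcm6: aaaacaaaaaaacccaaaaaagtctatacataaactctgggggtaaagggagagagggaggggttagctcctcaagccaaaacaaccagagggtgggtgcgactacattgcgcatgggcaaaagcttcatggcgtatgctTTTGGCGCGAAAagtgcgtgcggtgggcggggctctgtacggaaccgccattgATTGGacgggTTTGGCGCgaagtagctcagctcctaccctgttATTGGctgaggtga
Pcna: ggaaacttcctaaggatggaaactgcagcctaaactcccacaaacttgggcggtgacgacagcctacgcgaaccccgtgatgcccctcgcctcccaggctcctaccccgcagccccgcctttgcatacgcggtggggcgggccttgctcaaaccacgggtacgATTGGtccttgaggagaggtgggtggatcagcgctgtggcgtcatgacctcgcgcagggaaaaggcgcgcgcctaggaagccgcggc
Mcm5: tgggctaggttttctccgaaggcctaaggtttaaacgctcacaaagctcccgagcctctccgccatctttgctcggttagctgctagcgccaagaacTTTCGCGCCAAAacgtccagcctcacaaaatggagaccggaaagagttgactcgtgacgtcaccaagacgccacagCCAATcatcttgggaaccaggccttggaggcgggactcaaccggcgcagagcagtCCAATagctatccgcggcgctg
The Mcm6 promoter held 3 E2F matches and 2 CCAAT boxes, and that of Mcm5 held 2 of each. In both genes 1 pair of E2F matches overlaps on opposite strands. The Pcna window held 1 CCAAT box and the Tbr1 window 1 TTTGAA. RefSeq promoters were found for 28 of the 38 genes, of which 2 had more than 1 and were read by the first listed. An E2F match lay in 4 of the 28 (Mcm5, Mcm6, Mcm7 and Cdk1), against 1.86% of 32851 mouse promoters of the same length. A CCAAT box lay in 20 of the 28 against 33.8%, and TTTGAA in 7 of the 28 against 16.0%. These are matches of letters and not measured binding sites, and Mcm6, Mcm5 and Mcm7, which share E2F matches, had log2 fold changes of −0.37, −0.16 and −0.08.

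Across the 11 libraries the levels of many genes, these among them, followed the share of reads on annotated genes. A relation was computed for the 13493 genes tested and the 13 under the limit, and p-values were adjusted over all 13506. Of the 25 genes tested, 15 had an adjusted permutation p of Pearson's r under 0.05 with r above 0, against 46.7% of all genes tested, and 1 with r below 0, against 20.7%. Of the 13 under the limit, 4 passed, 1 with r above 0 (Cdk1) and 3 below. Among all genes tested the median r was 0.57 and 65.4% were above 0, while among the 25 the median was 0.68 and 20 were above 0. Of the 13, 8 had r below 0.

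Dcx had the most negative relation, with r = −0.93 (permutation p = 4.0e-05, adjusted 0.000302) and rho = −0.93 (permutation p = 0.00022, adjusted 0.0015). Without control 1 and toxicant 4, the 2 libraries farthest from the median share, r was −0.93. Within the 6 toxicant libraries it was −0.79 (exact permutation p = 0.0472, two-sided). Those 6 are among the 11 libraries, so the values within them are no independent check. The exact permutation p-values here and below are unadjusted. No value is given for the 5 control libraries alone. Dcx lay at 0.366 to 0.529 RPKM in control 1, 3 and 6 and at 0.674 to 1.49 RPKM in the other 8 libraries, toxicant and control alike.

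Mki67, Ccna2 and Cenpe went the same way, of which Ccna2 cannot be told apart from Exosc9 if strand was ignored. Mki67 had r = −0.87 (permutation p = 0.00059, adjusted 0.0017) and rho = −0.90 (permutation p = 0.0004, adjusted 0.00213), with −0.86 without the same 2 libraries and −0.89 within toxicant libraries (exact permutation p = 0.0139). Ccna2 had r = −0.90 (permutation p = 4.0e-05, adjusted 0.000302) and rho = −0.88 (permutation p = 0.00086, adjusted 0.00342), with −0.88 without those 2 and −0.68 within toxicant libraries (exact permutation p = 0.108). Cenpe had r = −0.80 (permutation p = 0.0044, adjusted 0.00862) and rho = −0.85 (permutation p = 0.00193, adjusted 0.00593), with −0.66 without those 2 and −0.67 within toxicant libraries (exact permutation p = 0.14).

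Pcna and Sox4 had the most positive relations. Pcna had r = 0.96 (permutation p = 2.0e-05, adjusted 0.000214) and rho = 0.91 (permutation p = 0.00029, adjusted 0.00176), with 0.93 without the 2 libraries and 0.91 within toxicant libraries (exact permutation p = 0.0167). Sox4 had r = 0.92 (permutation p = 3.0e-05, adjusted 0.000263) and rho = 0.93 (permutation p = 0.00017, adjusted 0.00129), with 0.92 without the 2 libraries and 0.94 within toxicant libraries (exact permutation p = 0.00556). Dcx and Sox4, both genes of immature neurons, thus had opposite signs across the same libraries. Tbr1 had r = 0.67 (permutation p = 0.0227, adjusted 0.0353) and rho = 0.64 (permutation p = 0.0403, adjusted 0.0630), with 0.55 without the 2 libraries and 0.49 within toxicant libraries (exact permutation p = 0.324). Mcm6 had r = 0.56 (permutation p = 0.0761, adjusted 0.103) and rho = 0.55 (permutation p = 0.0885, adjusted 0.122), with 0.40 without them and 0.11 within toxicant libraries (exact permutation p = 0.828).

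**Figure D4:**
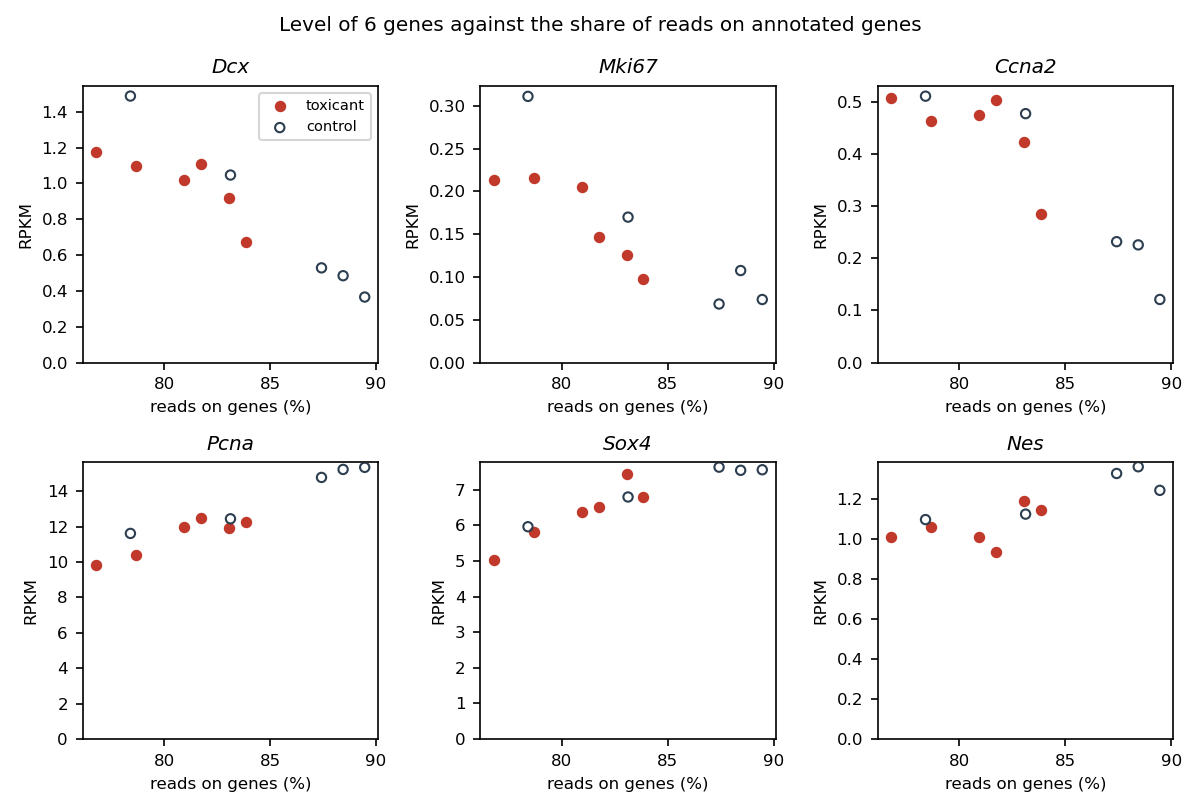
RPKM of 6 genes (each vertical axis starts at 0) against the percentage of reads on annotated genes in 6 toxicant libraries (filled points) and 5 control libraries (open points). Dcx, Mki67 and Ccna2 are lower, and Pcna, Sox4 and Nes higher, in libraries with a larger share of reads on genes.

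Malat1, a long noncoding RNA held in the nucleus, was 158 to 339 RPKM in toxicant libraries. In control libraries it was 345 RPKM in control 2 and 222 RPKM in control 4-5, and 46.0, 70.5 and 84.6 RPKM in control 1, 3 and 6. Control 1, 3 and 6 therefore combined the largest shares of reads on genes with the lowest levels of Malat1 and Dcx and the highest of Pcna. Of 4 other noncoding RNAs followed, Meg3 was also lowest in control 1, 3 and 6, at 34.9, 50.7 and 57.4 RPKM, against 76.3 to 228 RPKM in toxicant libraries and 223 and 132 RPKM in control 2 and control 4-5. Neat1 was 1.65 to 4.34 RPKM in toxicant libraries, against 1.04, 2.27 and 1.58 RPKM in control 1, 3 and 6 and 4.50 and 3.22 RPKM in control 2 and control 4-5. Rn7sk and Gm26917 did not follow that split of the controls. Rn7sk was 121 to 197 RPKM in toxicant libraries, and among controls 95.2 RPKM in control 2 lay below 123 RPKM in control 6. Gm26917 was lowest of all libraries in control 2, at 28.4 RPKM. The part of nuclear RNA in these values was not tested.

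With that share entered as a covariate, the 25 genes had a median log2 fold change of −0.01, with 13 below 0 and 12 above, against a median of −0.03 for all genes. The group difference of Dcx was then −0.13 ± 0.11 (limma adjusted p = 0.630). Mcm6 kept −0.33 ± 0.11 (limma unadjusted p = 0.0125, adjusted p = 0.279) and Tbr1 −0.23 ± 0.09 (limma unadjusted p = 0.0210, adjusted p = 0.304), 2 genes lower at an unadjusted p under 0.05 beside 9.13% of all genes tested. Calb2 at 0.69 (limma adjusted p = 0.248), Hes5 at 0.29 (limma adjusted p = 0.316) and Hes1 at 0.28 (limma adjusted p = 0.202) were higher at an unadjusted p under 0.05, beside 4.34% of all genes tested. None of the 25 passed adjustment in that fit, in which the group and the share are partly confounded.

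Leaving out control 2, the control library with the smallest share of reads on genes, changed the calls. Without it 36.5% of all genes tested passed an adjusted p of 0.05, with 28.0% lower in toxicant libraries and 8.56% higher. Of the 25 genes, 4 were then lower past the threshold and 1 higher. The lower ones were Mcm6 at −0.42 (limma adjusted p = 0.0230), Pcna at −0.32 (limma adjusted p = 0.0265), Tbr1 at −0.32 (limma adjusted p = 0.0274) and Mcm3 at −0.26 (limma adjusted p = 0.0456). The higher one was Dcx at 0.46 (limma adjusted p = 0.0398). Their count lies below the share called among all genes in that fit. Groups then did not overlap for 3 of the 38 (Tbr1, Mcm3 and Mcm6), all lower in toxicant libraries, against 11.9% of all genes tested that were lower without overlap and 0.734% that were higher. Without toxicant 3 they did not overlap for 2 (Tbr1 and Mcm6, both lower), against 3.19% lower and 0.148% higher. Without control 2 the 25 genes had a median log2 fold change of −0.18 against −0.16 for all genes.

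Other genes of the same pathways were described through 4 lists. Of 66 further cell cycle genes, 33 were above the limit, 24 of them lower and 9 higher (20 and 13 with median-ratio scaling), with a median log2 fold change of −0.14. These counts and those that follow stand beside 70.0% of all genes tested that were below 0 and 17.0% that were lower at an unadjusted p under 0.05. In limma, 0 passed adjustment and 2 had an unadjusted p under 0.05, both lower. These were Rfc3, a subunit of the factor that loads the PCNA clamp (−0.25 ± 0.09, limma adjusted p = 0.221), and the transcription factor gene E2f3 (−0.19 ± 0.08, limma adjusted p = 0.225). Among 7 inhibitors of cyclin-dependent kinases, 5 were above the limit and all 5 were lower, with a median of −0.16. With median-ratio scaling the median was −0.06 and 4 of 5 were lower, Cdkn1a being at 0.05. The 2 with the smallest p were Cdkn2c, encoding p18 (−0.29 ± 0.09, limma adjusted p = 0.207), and Cdkn1b, encoding p27 (−0.16 ± 0.07, limma adjusted p = 0.239), and 0 passed adjustment.

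Of 34 further neurogenesis genes, 32 were above the limit, 26 of them lower and 6 higher (21 and 11 with median-ratio scaling), with a median log2 fold change of −0.16. At an unadjusted limma p under 0.05, 8 were lower and 1 higher, and 0 passed adjustment. The smallest p-values were those of Thbs4, a secreted matrix protein gene, at 2.46 ± 0.423 RPKM in toxicant and 3.58 ± 0.820 RPKM in control libraries (limma adjusted p = 0.205), and of Lpar1, a lysophosphatidic acid receptor gene of hippocampal progenitors and oligodendrocytes, at 3.99 ± 0.637 RPKM in toxicant and 5.28 ± 0.720 RPKM in control libraries (limma adjusted p = 0.205). Mature oligodendrocyte markers, which share Lpar1's second cell type, summed to 476 to 657 RPKM in toxicant and 684 to 768 RPKM in control libraries without overlap, and the part of that cell type in the Lpar1 values was not tested. Of 21 genes of the Notch and BMP pathways, which keep stem cells quiescent, 20 were above the limit, 16 of them lower and 4 higher (11 and 9 with median-ratio scaling), with a median of −0.12. At an unadjusted limma p under 0.05, 4 were lower and none higher, and 0 passed adjustment. The smallest p-values were those of the receptor gene Notch1 (−0.25 ± 0.08, limma adjusted p = 0.207) and of Id2, a target of BMP signalling that was lower without overlap, at 16.2 ± 1.08 RPKM in toxicant and 18.7 ± 1.25 RPKM in control libraries (limma adjusted p = 0.221). Of all genes tested, 2.03% were lower without overlap.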

How the data were processed

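The authors deposited a table with 1 RPKM value per gene and library, per the file headers. Aligner, counting program, genome build, annotation and use of strand: not given in the sources used here. Per the labels, poly(A) RNA was sequenced as single reads. Columns were matched to samples through the code in each description.

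Depth was recovered from the RPKM steps and GENCODE M21 exon lengths (41675 of 41743 IDs found). In each library 98.4% to 98.6% of values were whole reads within 0.05. Coordinates are GRCm38, looked up by Ensembl ID. Values were tested as log2(RPKM + 0.5) with limma 3.58.1 in R 4.3.3, two-sided, with a mean-variance trend and no covariate, over the 13493 genes that averaged 0.5 RPKM or more, at a Benjamini-Hochberg adjusted p of 0.05. The script was tested on simulated data. Relations to the share of reads used 100000 permutations, adjusted over the 13506 genes for which a relation was computed. Within the toxicant group all 720 pairings were used, without adjustment. Exact Poisson intervals are at 95%.

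The genes were taken by symbol for their roles, but they, the lists and the tests were chosen with earlier results of these data known, so the lists were given no test. Values per library are given for genes at an unadjusted p under 0.05, for genes without overlap between groups, and for Dcx, Mki67, Sox11, Ccnd2, Pcna and Neurod1. Of each other pathway list, the 2 genes with the smallest p are named. The alternatives were other pseudocounts (0.1 and 1), no filter or one at 1 RPKM, median-ratio scaling, the replicate number as a block, the fraction of reads on genes as covariate, all 12 libraries, leaving out each library, limma-voom on recovered reads and an adjusted threshold of 0.1.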

Additional observations from a re-analysis of the deposited data

Results flagged for a closer look

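In each gene's toxicant group and each gene's control group, the highest and the lowest library were compared with the others by Dixon's gap test. Of 76 such groups, 3 held a library set far apart, where chance gives about 1 in 20. Eomes was 0.616 RPKM in toxicant 1, with the next toxicant library at 0.250 RPKM. Calb2 was 25.1 RPKM in toxicant 1, with the next toxicant library at 17.9 RPKM. Mcm4 was 1.44 RPKM in control 1, with the next control library at 2.02 RPKM.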

How the results depend on the processing

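Direction was kept under every alternative run by 10 of the 25 genes tested, Tbr1, Mcm6 and Pcna among them. The count of all genes past the threshold, 0 with RPKM as deposited, was 10 with all 12 libraries, 1 with a pseudocount of 0.1 and 11 at an adjusted p under 0.1. Leaving out 1 library gave 0 to 4929 genes past the threshold and 0 to 5 of the 25, the upper values without control 2. The median log2 fold change of the 25 was −0.032 with median-ratio scaling, −0.0092 with the fraction of reads on genes as covariate, and −0.18 to −0.08 when 1 library was left out. Groups did not overlap for 3 genes without control 2 (all genes tested: 11.9% lower, 0.734% higher) and for 2 without toxicant 3 (3.19% lower, 0.148% higher). Median-ratio scaling turned Hes5 to 0.056, Neurod1 to 0.066, Dpysl3 to 0.013, Dpysl5 to 0.050, Ccnd2 to 0.031 and Mcm7 to 0.012. The covariate turned Hes5 to 0.29, Dcx to −0.13, Sox4 to 0.026, Stmn1 to 0.017, Dpysl3 to 0.086, Dpysl5 to 0.13, Ccnd1 to 0.11, Ccnd2 to 0.046, Hmgb2 to −0.013, Mcm4 to −0.051, Mcm5 to 0.054 and Mcm7 to 0.048. With 12 libraries Hes5 was 0.014 and Hmgb2 −0.0037. Some genes near 0 turned when 1 library was left out. Leave-one-out values ran from −0.00090 to 0.13 for Hes1, −0.18 to 0.084 for Hes5, −0.071 to 0.022 for Neurod1, −0.17 to 0.29 for Calb2, −0.13 to 0.041 for Dpysl5, −0.053 to 0.097 for Hmgb2 and −0.076 to 0.050 for Mcm4. The cause was not tested. Groups share replicate numbers, but same-numbered libraries deviated together with correlations of 0.62, 0.28, −0.30, 0.32 and 0.27, so the numbers were not taken as pairs. With the replicate block 0 genes passed the threshold, 4664 had an unadjusted p under 0.05, and the smallest adjusted p among the 25 was 0.0998. Depth limits the 15 genes with under 100 reads in every library, and 1 library per animal means that p-values measure the spread between these animals.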
